A study of Mus musculus with 8 samples.

Results

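Ccl2, Ccl7, Ccl8 and Ccl12 encode the monocyte chemoattractant proteins, and Ccr2 and Cx3cr1 encode the 2 receptors used to describe the monocytes that answer to them or patrol the vessels. All 6 genes were found among the 32285 genes of the matrices. They were chosen by name and not by a measured value, though with earlier results of these data known. Their unique molecular identifiers (UMIs, 1 count per captured transcript) were followed by library, hashtag genotype and cell cluster.

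The ligands are small secreted proteins that draw leukocytes along a gradient. CCL2 and CCL7 act mainly through CCR2, a G protein-coupled receptor that classical Ly6C-high monocytes need to leave the bone marrow and enter inflamed tissue or tumors. CCL12 is a rodent ligand of CCR2, and CCL8 belongs to the same gene cluster. CX3CR1 is the receptor of CX3CL1, is high on nonclassical patrolling monocytes and many tissue macrophages, and is lower on classical monocytes, in which CCR2 is high.

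The cells came from C57BL/6J mice of 8 to 10 weeks, of both sexes, that carried MC38 colon carcinoma. Cells sorted as CD45+CD11b+Ly6Chi, the surface type of monocytic myeloid-derived suppressor cells, were taken from the tumor or the blood. They came from mice without irradiation (control, called untreated below) or 3 days after 1 tumor dose of 20 Gy ionizing radiation (IR). The paper's methods describe a sham treatment in place of radiation. Each of the 4 droplet libraries mixed wild-type cells (WT, Ythdf2 fl/fl, hashtag antibody B0301) with conditional knockout cells (cKO, LyzCre+;Ythdf2 fl/fl, hashtag B0302), so that both genotypes carried the floxed allele and differed in Cre, which sits at the Lyz2 locus and is active in monocytes, macrophages and neutrophils alike. Cells of 5 mice were pooled per genotype, which made 8 groups of 1 pool each, with no replicate. No test was therefore possible, and every interval below is a 95% interval of counting error only, which leaves out the spread between mice, pools and libraries.

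A total of 28674 cells were kept and labelled, from 2169 to 4807 per group. Gene UMIs per library ran from 51653956 to 87703837, and the kept cells of a library held a median of 2838 to 7227 UMIs. The tumor matrices shared 12558 barcodes. A droplet with hashtags only in tumor control had 1.95 to 2.57 times as many UMIs in the tumor control matrix as in the tumor IR matrix (4955 droplets), and one with hashtags only in tumor IR had 0.447 to 0.661 times as many (7325 droplets). The same droplets had thus been counted in both tumor matrices, and a cell was used only in the library that held its hashtags. Another 276 barcodes held hashtags in both. WT and cKO are hashtag labels throughout: Ythdf2 was at 32.7 to 55.6 CPM in cells labelled WT and at 304 to 372 CPM in cells labelled cKO, where CPM is UMIs per 1000000 gene UMIs of the group. These tags lie at the 3′ end and do not check the deletion. Lyz2, the locus of Cre, was at 84.9 to 139 CPM in cells labelled cKO and at 5640 to 13992 CPM in cells labelled WT.

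The sorted phenotype did not hold for every cell. Cells were clustered within each tissue without the 6 genes, and clusters were named X-like from fixed marker lists. In blood, 67.3% to 73.9% of the cells of a group were neutrophil-like, and 14.4% to 17.7% were classical monocyte-like. In untreated tumors 12.0% of the cells labelled WT and 4.29% of those labelled cKO were classical monocyte-like, and after IR 33.6% and 30.1% were. A fibroblast-like cluster of 496 tumor cells, with Col1a1, Col3a1 and Dcn and also 9 proliferation markers raised, had Ptprc (CD45) in 9.27%, Itgam (CD11b) in 12.1% and Ly6c2 in 8.87% of its cells, against 83.1%, 75.8% and 55.2% of all tumor cells, at a median of 26108 UMIs per cell. This cluster was rich in Ccl2.

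The 4 ligand genes lie on mouse chromosome 11, within 81229 bases of the plus strand (mm10). Ccl2 (ENSMUSG00000035385) is at chr11:82035571-82037453, Ccl7 (ENSMUSG00000035373) at chr11:82045712-82047525, Ccl12 (ENSMUSG00000035352) at chr11:82101845-82103400 and Ccl8 (ENSMUSG00000009185) at chr11:82115185-82116799. An antisense protein-coding gene model, Gm17268, overlaps Ccl2. Ccr2 (ENSMUSG00000049103) is at chr9:124101950-124113557 on the plus strand, and Cx3cr1 (ENSMUSG00000052336) at chr9:119901616-120069879 on the minus strand, a model that spans several other genes. In untreated tumors 1 macrophage cluster, described below, held most of the Ccl12 and Ccl8 UMIs. It was also the largest source of Ccl7, with 44.9% of the Ccl7 UMIs in WT and 57.4% in cKO cells. No promoter sequence was at hand for Ccl2 or Ccl7, and those of the 2 neighbours Ccl12 and Ccl8 are shown. Each is the 250 bases before the start site from RefSeq (GRCm38.p6, plus strand), at chr11:82101595-82101844 and chr11:82114935-82115184, with capitals on the motif matches described next.
Ccl12: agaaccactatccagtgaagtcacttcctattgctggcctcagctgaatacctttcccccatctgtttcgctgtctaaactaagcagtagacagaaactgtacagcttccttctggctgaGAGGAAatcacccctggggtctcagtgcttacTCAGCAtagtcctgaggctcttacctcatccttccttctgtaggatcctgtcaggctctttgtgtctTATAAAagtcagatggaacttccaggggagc
Ccl8: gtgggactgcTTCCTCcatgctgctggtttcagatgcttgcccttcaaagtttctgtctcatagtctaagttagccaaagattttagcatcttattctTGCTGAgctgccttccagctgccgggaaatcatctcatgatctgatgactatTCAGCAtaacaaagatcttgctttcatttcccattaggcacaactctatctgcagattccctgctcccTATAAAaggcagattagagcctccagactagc

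Matches were searched on both strands. Both promoters held the TATA letters TATAAA, 31 bases before the start in Ccl12 and 32 in Ccl8, which 12.4% of 32851 promoters of this length also held. Both held the MAF half-site TGCTGA, beginning 98 bases before the start in Ccl12 and 152 and 100 bases before it in Ccl8 (16.1% of promoters), and the PU.1 core GAGGAA, at 130 and 240 bases (23.3% of promoters). MAF and PU.1 are transcription factors of macrophages. Neither promoter held the ISRE letters GAAA repeated after any 2 bases, bound by interferon-activated factors (2.98% of promoters), the AP-1 letters TGANTCA (6.75%), the C/EBP letters TTNNGCAA (9.56%) or an NF-kB consensus site (7.25%). No motif overlapped another. Aligned end to end, the 2 sequences were identical at 57.5% of 280 columns, against 48.2% to 50.7% for the 5 other pairs among the Ccl8, Ccl12, Ccr2 and Cx3cr1 promoters.

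Ccl2 was measured at 1266 CPM (1250.4 to 1281) in tumor control WT cells, 2558 (2538 to 2579) in tumor control cKO, 2241 (2221 to 2262) in tumor IR WT and 2150.3 (2132 to 2169) in tumor IR cKO. WT control cells were thus the low group, and the other 3 tumor groups lay close together. In blood it was at 86.5 CPM (82.6 to 90.5) in control WT, 36.9 (34.2 to 39.7) in control cKO, 64.8 (61.5 to 68.1) in IR WT and 52.0 (48.8 to 55.3) in IR cKO. Every tumor group lay over 10 times above every blood group.

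Ccl7 followed the order of Ccl2 in the control tumors, with 522 CPM (512 to 532) in WT and 1087 (1074 to 1101) in cKO cells, and lay between these after IR, at 853 (840 to 866) in WT and 1011 (998 to 1024) in cKO. Ccl12 was at 272 CPM (265 to 280) in control WT, 454 (445 to 463) in control cKO, 286 (279 to 293) in IR WT and 393 (386 to 401) in IR cKO. Ccl8 was at 75.6 CPM (71.9 to 79.5), 126 (121 to 130), 42.8 (39.96 to 45.7) and 90.2 (86.5 to 94.1) in the same order. For both genes the cKO cells were above the WT cells with or without IR. UMIs are counted at the 3′ end of transcripts and are not scaled for length, so levels are set side by side here within a gene and not between genes.

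In blood these 3 ligands were all but absent. Ccl8 had no UMI in any blood group, in 3774 to 4807 cells each, which allows a level of up to 0.192 CPM in the shallowest group, control cKO. Ccl7 had 14, 0, 4 and 1 UMIs and Ccl12 had 1, 6, 4 and 1 UMIs in control WT, control cKO, IR WT and IR cKO, and the 6 UMIs came from 1 cell.

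Ccr2 had its highest CPM in blood, at 547 CPM (537 to 557) in control WT, 534 (524 to 545) in control cKO, 522 (513 to 532) in IR WT and 657 (646 to 669) in IR cKO. In tumors it was at 318 (310.4 to 326) and 319.9 (313 to 327) in control WT and cKO, which overlapped, at 332 (324 to 340.1) in IR WT and at 427 (419 to 435) in IR cKO. Cx3cr1 was at 139 CPM (134 to 144), 178 (172 to 184), 87.8 (84.0 to 91.7) and 110.4 (106 to 115) in the blood groups in the order given for Ccr2. In tumors it was at 50.2 (47.1 to 53.3) in control WT and 84.8 (81.1 to 88.6) in control cKO, and at 12.0 (10.6 to 13.7) in IR WT and 13.7 (12.2 to 15.2) in IR cKO, the lowest levels of the 8 groups, whose intervals overlapped.

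**Figure D1:**
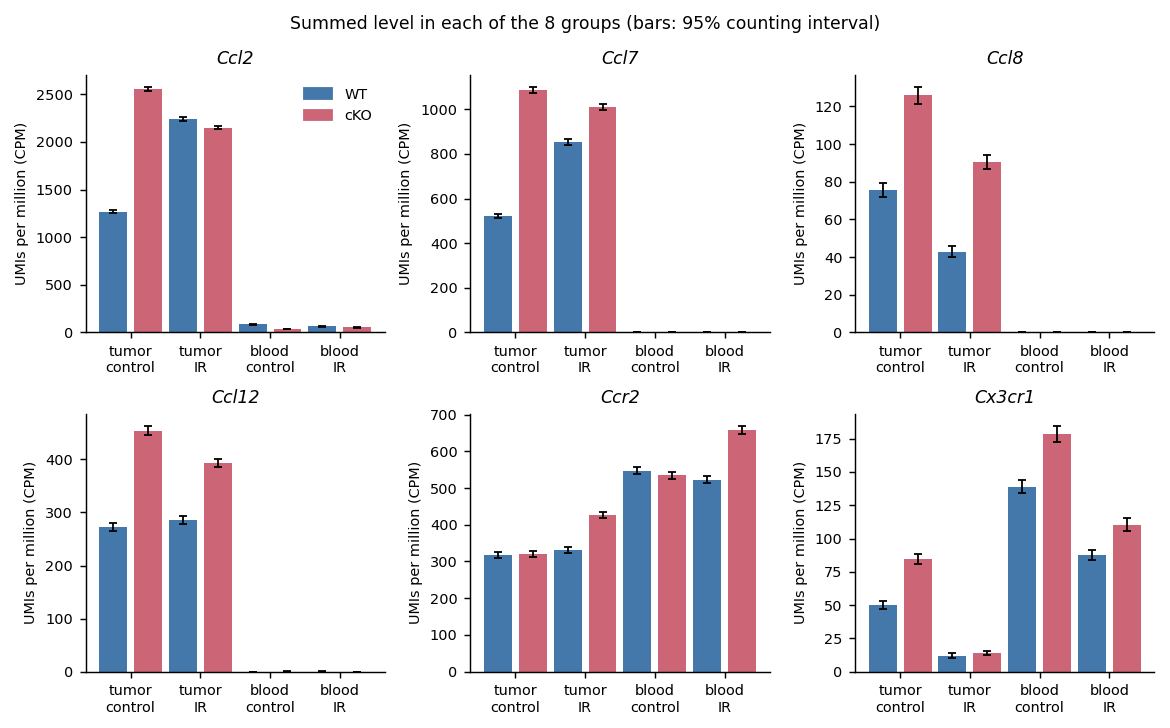
Bars give the level of each gene, in CPM on a linear axis from 0, in each of the 8 groups, and error bars the 95% counting interval. The 4 ligands stood in the tumor groups, Ccr2 had its highest CPM in blood, and Cx3cr1 was lowest in both tumor IR groups (12.0 and 13.7 CPM).

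Untreated tumor cells were set against untreated blood cells to ask where the genes are transcribed. Among WT cells 5 of the 6 genes were past the limit, which was a log2 ratio of CPM of at least 1 in either direction for a gene with at least 100 UMIs in the pair. Of all 10398 genes tested, 35.7% were past it. Among cKO cells 5 of 6 were past it, and 43.9% of 10765 genes. Ccl7, Ccl8 and Ccl12 reached 100 UMIs through the tumor cells alone and so had to differ, and these counts are not read against the background. Ccl2 was higher in tumor by a log2 ratio of 3.87 (3.80 to 3.94) in WT and 6.11 (6.01 to 6.23) in cKO cells. Ccl8 was at least 545-fold higher in WT and at least 805-fold higher in cKO cells, and Ccl7 at least 6958-fold higher in cKO cells, each against a floor of 3 UMIs in the blood group. The receptors were lower in tumor by summed UMIs. Ccr2 had a log2 ratio of -0.78 (-0.83 to -0.74) in WT and -0.74 (-0.78 to -0.70) in cKO cells, short of the limit, and Cx3cr1 one of -1.47 (-1.57 to -1.37) and -1.07 (-1.15 to -0.99). The Cx3cr1 values depended on the weight of large cells: as a mean of per-cell CPM they were -0.36 in WT and 0.069 in cKO cells, neither past the limit and the second with the sign turned. For Ccr2 the share of cells had the other order than the CPM. With cells thinned to 1000 UMIs, Ccr2 was found in 24.9% of tumor and 15.2% of blood control WT cells. In control cKO cells these shares were 26.5% and 16.9%.

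The ligands were unevenly spread over the tumor cells. The 1% of cells richest in the gene held 63.7% of the Ccl8 UMIs, 56.3% of the Ccl12 UMIs and 26.6% of the Ccl2 UMIs in tumor control WT, against 7.28% of the Ccr2 UMIs. A single cell held up to 1139 UMIs of Ccl2 (control cKO). Ccl8 was the most concentrated, since its richest 1% of cells held 54.5% of its UMIs in control cKO, 87.3% in IR WT and 75.2% in IR cKO, and 1 cell held 254 of the 866 UMIs of IR WT. Cells were thinned to 1000 UMIs each to compare shares at 1 depth, which left out 60 to 145 shallower cells per tumor group. Ccl2 was then found in 26.4% (24.7% to 28.2%) of control WT, 45.2% (43.0% to 47.3%) of control cKO, 41.9% (40.2% to 43.7%) of IR WT and 42.8% (41.2% to 44.4%) of IR cKO cells, and unthinned in 49.8%, 69.1%, 62.8% and 63.0%. The share of cells with Ccl2 therefore had the same low group as its level.

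A cluster led by Fcrls, Gas6, Folr2 and Mrc1 had the highest levels of Ccl2, Ccl7, Ccl12 and Cx3cr1 among the tumor clusters when the 4 groups were pooled. In both control groups it was first for these 4 genes and Ccl8, and in both IR groups for Ccl7. It had 9 of the C1q macrophage markers raised and 6 of the Folr2 resident-like macrophage markers, and it was left unnamed because more of its leading genes belonged to the second list than to the first. It is called the Folr2 cluster below. Its 598 cells, 5.14% of the tumor cells, held 63.1% of all tumor Ccl8 UMIs, 44.2% of Ccl12, 44.1% of Cx3cr1, 26.9% of Ccl7 and 12.4% of Ccl2. Its levels were 789 CPM for Ccl8 (767 to 812), 2308 for Ccl12 (2270 to 2347), 3470 for Ccl7 (3423 to 3517), 3778 for Ccl2 (3730 to 3828) and 262 for Cx3cr1 (249 to 275). Ccr2 was low there, at 197 CPM (186 to 208), and Ly6c2, a marker of the sort, at 21.2 CPM. After IR it held 21 WT and 51 cKO cells and was no longer first for several genes. Ccl2 was then at 3972 CPM (3660.3 to 4303) in its WT and 3092 (2914 to 3278) in its cKO cells, against 4057 (4002 to 4113) and 3500.3 (3451 to 3549.7) in the interferon-led classical monocyte-like cluster described next. The WT pair of intervals overlapped, and the cKO pair did not. Ccl12 in IR cKO cells was at 721 CPM (637 to 814) there, below this monocyte-like cluster (846, 822 to 871) and a C1q macrophage-like cluster (1989, 1783 to 2212).

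Ccl2 had 3 further main sources. The fibroblast-like cluster was at 3294 CPM (3264 to 3324) and held 24.7% of the tumor Ccl2 UMIs in 4.26% of the cells, with 640 CPM of Ccl7 (627 to 653) but only 6.07 CPM of Ccl12 and 14.2 of Ccl8. A classical monocyte-like cluster led by interferon-stimulated genes (Ifit1bl1, Cmpk2, Rsad2) was at 3677 CPM (3641 to 3713) and held 22.2% of Ccl2, 24.1% of Ccl7 and 26.7% of Ccl12, but 3.503% of Ccl8. Arg1 macrophage-like cells were at 2849.6 CPM (2815 to 2885) and held 13.8% of Ccl2 and 17.7% of Ccl8. A second classical monocyte-like cluster, led by Dmkn and Rhov, was lower, at 903 CPM of Ccl2 (878 to 927) and 52.3 of Ccl12. A smaller C1q macrophage-like cluster of 250 shallow cells was as rich in Ccl8 as the Folr2 cluster, at 881 CPM (801 to 967).

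Lymphoid and dendritic cells marked the low end. Ccl2 was at 74.3 CPM in NK cell-like, 85.4 in conventional dendritic cell-like and 40.3 in mature Ccr7 dendritic cell-like tumor cells, and a UMI of it was found in 16.5%, 27.4% and 20.6% of these cells (median depths 2692, 7769 and 6325 UMIs). Barcodes with 10 to 100 UMIs, a measure of free RNA, held Ccl2 at 2854 CPM in tumor control and 2968 in tumor IR, and because the tumor matrices shared their droplets, free RNA could not be measured for control and IR apart. Ccl8 was at 342 and 301.2 CPM in these barcodes and at 6.51 CPM in NK cell-like cells. Levels in the source clusters lay far above those of the NK cell-like cells, and neutrophil-like tumor cells, at 184 CPM of Ccl2 and 55.9 of Ccl8, are not read as a source.

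**Figure D2:**
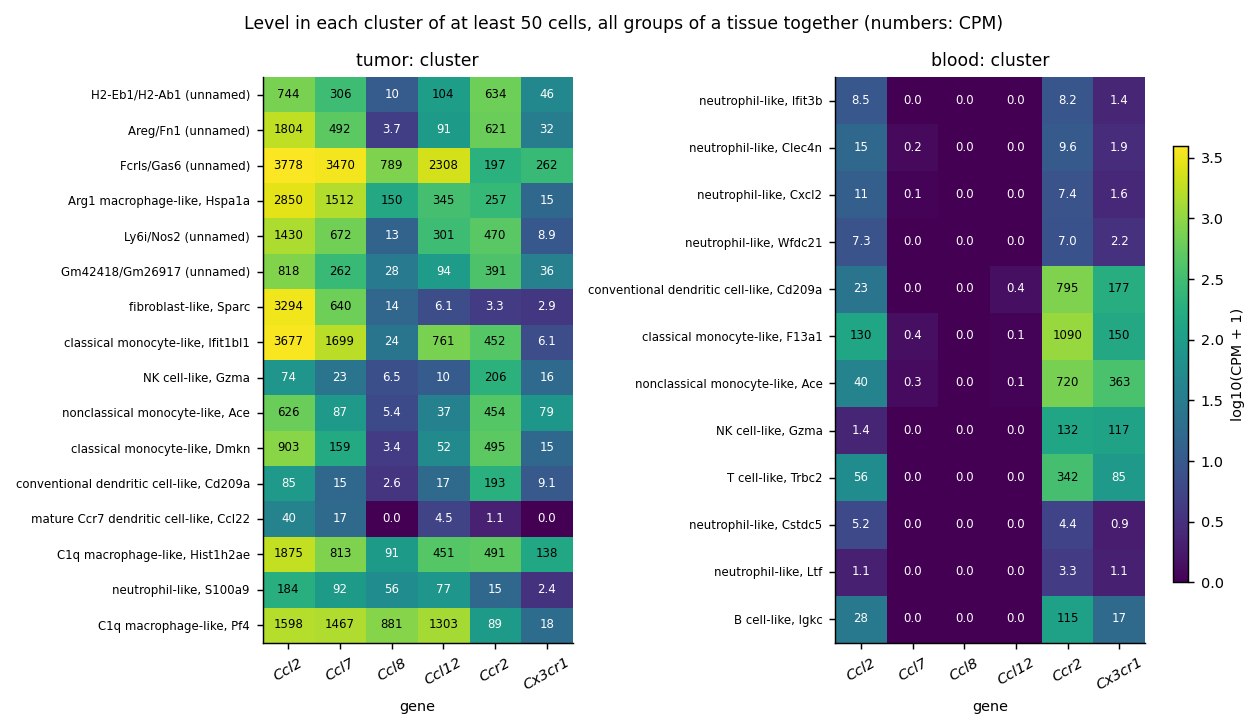
Rows are the clusters of tumor (left) and blood (right) with at least 50 cells, named by fixed markers and a leading gene; columns are the 6 genes; color is log10(CPM + 1), and the printed numbers are CPM. With the 4 tumor groups pooled, the Fcrls/Gas6 cluster held the highest Ccl12 (2308 CPM) and Cx3cr1, the fibroblast-like cluster held much Ccl2 and little Ccl12, and blood neutrophil-like cells held almost none of the 6 genes.

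Ccr2 was led by other clusters than the ligands, though several clusters held both. In tumors it was highest in the clusters led by H2-Eb1 and H2-Ab1 (634 CPM, 614 to 654) and by Areg and Fn1 (621 CPM, 606 to 636), both unnamed, and between 452 and 495 CPM in both classical monocyte-like clusters, the nonclassical monocyte-like and the proliferating C1q macrophage-like cluster. The interferon-led cluster, a main source of Ccl2, held 16.1% of the tumor Ccr2 UMIs, at 452 CPM with a UMI in 79.0% of its cells, and the Areg and Fn1 cluster had Ccl2 at 1804 CPM. Ccr2 was at 3.33 CPM in fibroblast-like and 1.12 CPM (1 UMI) in mature Ccr7 dendritic cell-like cells. In blood, classical monocyte-like cells led by F13a1 and Vcan were at 1090 CPM (1079 to 1102), with a UMI in 99.5% of cells, followed by conventional dendritic cell-like cells at 795 (760.2 to 830.2) and nonclassical monocyte-like cells at 719.7 (706 to 734). The neutrophil-like blood clusters were at 3.25 to 9.62 CPM, with a UMI in at most 2.75% of cells, against 593 and 623 CPM in the free RNA of the blood libraries.

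Cx3cr1 in blood was highest in nonclassical monocyte-like cells, at 363 CPM (353 to 373), against 150 (145 to 154) in the F13a1 classical monocyte-like cells and 117 (99.96 to 136) in NK cell-like cells. The tumor cells named nonclassical monocyte-like carry that name by the marker list alone. Their Ly6c2 was at 1120 CPM, beside 1123 CPM in the Dmkn and Rhov classical monocyte-like cluster. In blood nonclassical monocyte-like cells Ly6c2 was at 491 CPM. In tumors the nonclassical monocyte-like cells had Cx3cr1 at 78.8 CPM (72.7 to 85.3) with the groups pooled. This was below the Folr2 cluster and the proliferating C1q macrophage-like cells (138 CPM, 122 to 155). That order held in both control groups, although the intervals of the last 2 overlapped in WT, and after IR the nonclassical monocyte-like cells were first, at 49.4 CPM (40.7 to 59.4) in WT and 80.9 (69.4 to 93.6) in cKO cells, where the Folr2 cluster of cKO cells was at 46.8 (27.3 to 74.9). Blood Ccl2 was mainly in classical monocyte-like cells: the F13a1 cluster held 78.6% of it, at 130 CPM (126 to 134), against 40.2 (37.0 to 43.7) in nonclassical monocyte-like cells and 1.39 (2 UMIs) in NK cell-like cells.

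In the same tumor cell the ligands were often found together, and they differed in which receptor they were found with. Among the 11211 thinned tumor cells, Ccl7 was found in 44.8% (43.3% to 46.3%) of the cells with a Ccl2 UMI and in 6.36% (5.79% to 6.97%) of those without. Ccl12 was found in 48.9% of cells with Ccl8 and in 10.49% of those without. Ccr2 was found in 14.3% (10.7% to 18.5%) of cells with Ccl8 against 27.4% (26.6% to 28.3%) of those without, but in 29.9% of cells with Ccl2 against 25.2% without. The order for Ccl2 and Ccr2 differed between control and IR cKO cells: in control cKO, Ccr2 was found in 22.8% of cells with Ccl2 and 29.6% of those without, and in IR cKO in 36.7% and 24.96%. In control WT cells these shares were 23.9% (20.7% to 27.4%) and 25.2% (23.2% to 27.3%), whose intervals overlapped. In IR WT cells they were 29.9% and 22.5%. Cx3cr1 was found in 10.9% (7.78% to 14.8%) of cells with Ccl8 and in 3.08% (2.76% to 3.42%) of those without, in 6.45% against 2.90% by Ccl12, 5.43% against 2.73% by Ccl7 and 3.78% against 3.005% by Ccl2. In control cKO cells it was found in 20.2% (15.7% to 25.4%) of cells with Ccl12 against 5.97% without, and in 15.2% against 4.97% by Ccl7. In IR cKO cells this order was not seen for these 2 ligands, and the intervals overlapped. Cx3cr1 was found in 0.586% (0.121% to 1.70%) against 1.47% (1.08% to 1.95%) by Ccl12. By Ccl7 it was found in 0.708% (0.260% to 1.53%) against 1.54% (1.12% to 2.07%). Cells within a group share their pool of mice and library, so these shares are descriptive.

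Profiles over 68 cluster and group units of both tissues gave the same picture, with the libraries shared between units and no independence among them. Among 10012 genes compared by Pearson's r of log2(CPM + 10), the gene most like Ccl2 was Ccl7 (r = 0.94), followed by Ctsl and Ecm1. Those most like Ccl7 were Ccl2, Pdpn (r = 0.94) and Ctsl. Ccl8 was most like Folr2 (r = 0.93), Syngr1 and Ms4a7, and Ccl12 most like C1qc (r = 0.91), C1qa and Ms4a7. The receptors were placed elsewhere. Ccr2 was most like Pycard, Ms4a6b and AI662270, and Cx3cr1 most like Mef2c, Vps13c and Dennd6a.

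IR against control in tumors asked how the kept tumor cells, of all clusters together, differed after irradiation. Among WT cells 1 of the 6 genes was past the limit, Cx3cr1, against 5.92% of the 10148 genes tested. Cx3cr1 was at 50.2 CPM in control and 12.0 CPM in IR cells, a log2 ratio of -2.05 (-2.27 to -1.85). Ccl2 had a log2 ratio of 0.82 (0.80 to 0.85) and Ccl7 of 0.71 (0.67 to 0.74), Ccl12 and Ccr2 of 0.07 and 0.06, and Ccl8 of -0.82 (-0.94 to -0.70). The median of all genes tested was -0.13. With TMM scaling, which moved it to 0.01, Ccl2 was at 0.96, Ccl7 at 0.85 and Ccl8 at -0.68. Among cKO cells 1 of the 6 genes was past the limit, again Cx3cr1, at -2.63 (-2.80 to -2.47), against 22.2% of 10669 genes, a background from which 1 of 6 does not stand out. Ccl2 (-0.25, -0.27 to -0.23), Ccl7 (-0.10), Ccl12 (-0.21) and Ccl8 (-0.48, -0.56 to -0.40) were near or below the median of all genes (-0.18), and Ccr2 was at 0.42 (0.37 to 0.46). The IR effect on Ccl2 was lower by 1.07 on the log2 scale in cKO than in WT cells, a difference that was not tested, and with TMM scaling, which moved the median of all genes to 0.01 in cKO cells as well, Ccl2 was at -0.06 and Ccl7 at 0.09 in cKO cells.

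The cell mix moved with IR in both genotypes. The Folr2 cluster made up 5.99% of control WT and 17.2% of control cKO cells but 0.667% and 1.35% after IR. It had held 82.8% and 90.9% of the control Ccl8 UMIs and 79.2% and 84.8% of the Ccl12 UMIs, against 28.1% and 26.0% and 4.84% and 2.69% after IR. The interferon-led classical monocyte-like cluster went from 2.25% and 0.876% to 24.1% and 21.7% of cells and then held 62.6% and 48.8% of Ccl12 and 45.1% and 36.9% of Ccl2. Fibroblast-like cells went from 4.61% and 11.7% to 2.48% and 1.27% of cells, and from 35.9% and 44.2% to 14.0% and 6.11% of Ccl2 UMIs. The ligands thus came mostly from other clusters after IR than without it.

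**Figure D3:**
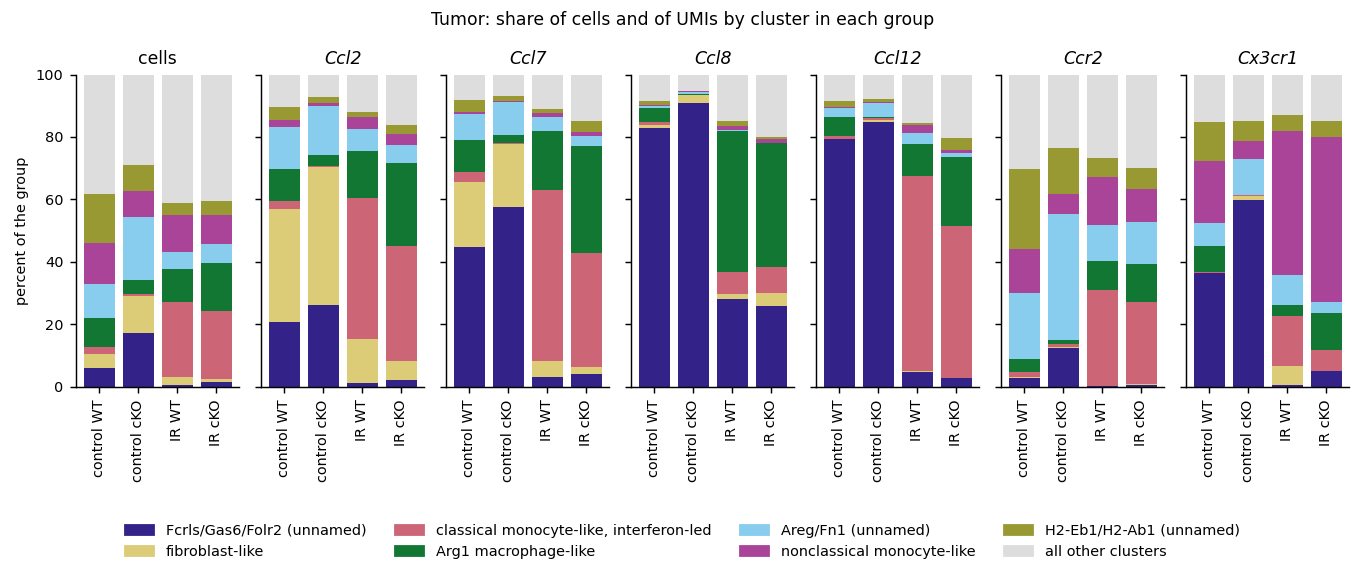
Stacked bars give, for each of the 4 tumor groups, the percent of cells (left panel) and of each gene's UMIs (other panels) that lay in 7 clusters and in all others. Ccl8 and Ccl12 of untreated tumors came mostly from the Fcrls/Gas6/Folr2 cluster, which also held the largest single part of their Cx3cr1, and Ccl12 after IR mostly from the interferon-led classical monocyte-like cluster.

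Within most clusters of WT cells Ccl2, Ccl7 and Ccl12 were higher after IR. A cluster was compared where both groups had at least 50 cells, whatever the gene's UMIs, since a minimum of UMIs would let a cluster in through the group where the gene is high. In WT cells Ccl2 was above 0 in 10 of 11 clusters, and Ccl7 and Ccl12 in 8 of 11. Clusters with at least 100 UMIs in the pair had log2 ratios of 0.14 to 2.48 for Ccl2 and 0.10 to 2.22 for Ccl12. The cluster led by Ly6i, Nos2 and Cxcl9 had the largest change of Ccl2, from 300.9 to 1681 CPM, and the nonclassical monocyte-like cluster went from 299 to 782 CPM. In cKO cells Ccl2 was above 0 in 7 of 11 clusters and Ccl12 in 9 of 11, with ranges of -0.47 to 1.76 and -1.68 to 3.47 at 100 UMIs or more. The Folr2 cluster was among the exceptions: in cKO cells its Ccl12 went from 2307 to 721 CPM (log2 ratio -1.68), while its Ccl8 went from 685 to 1589 CPM (1.21). Ccl8 was above 0 in 5 of 11 clusters in WT (median -0.69) and 9 of 11 in cKO (median 1.56), most of them with few UMIs. In Arg1 macrophage-like cells it had 70 UMIs in control and 391 in IR WT (47.8 and 159.7 CPM), and 5 and 876 in cKO (7.13 and 203 CPM). Over all cells it was lower after IR in both genotypes. With each class held at a fixed share, Ccl8 had a log2 ratio of 1.06 in WT and 1.82 in cKO cells, past the limit, and Ccl2, Ccl7 and Ccl12 of 0.90, 0.94 and 0.66 in WT and 0.073, 0.43 and 0.46 in cKO cells, so that all 4 ligands were above 0. In named myeloid clusters only, Ccl2, Ccl7 and Ccl12 were past the limit in WT cells (1.53, 1.74 and 1.73), and Ccl7, Ccl12 and Ccl8 in cKO cells (1.29, 1.28 and 1.51). Without lymphoid, stromal, erythroid and basophil clusters, fibroblast-like cells among them, Ccl2 was at 1.09 in WT, past the limit, and 0.039 in cKO cells, and Ccr2 in cKO cells was at -0.042 where it had been at 0.42. The share of all genes past the limit was not measured in these settings, so these calls have no background.

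Cx3cr1 was lower after IR over all cells, and below 0 in 9 of 11 clusters in WT (median -1.50) and 10 of 11 in cKO cells (median -1.65), with few UMIs in most clusters after IR. The nonclassical monocyte-like cells had more than 100 in each group, and went from 95.98 to 49.4 CPM in WT (-0.95) and from 102 to 80.9 CPM in cKO cells (-0.33). In the Folr2 cluster of cKO cells it went from 304 to 46.8 CPM, and with fixed class shares it was at -1.73 in WT and -2.06 in cKO. Ccr2 differed less within clusters, with 6 of 11 above 0 in WT and 7 of 11 in cKO, and ranges of -0.24 to 0.48 and -0.49 to 1.02 at 100 UMIs or more. The highest value was in Arg1 macrophage-like cKO cells, from 148 to 300.6 CPM.

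**Figure D4:**
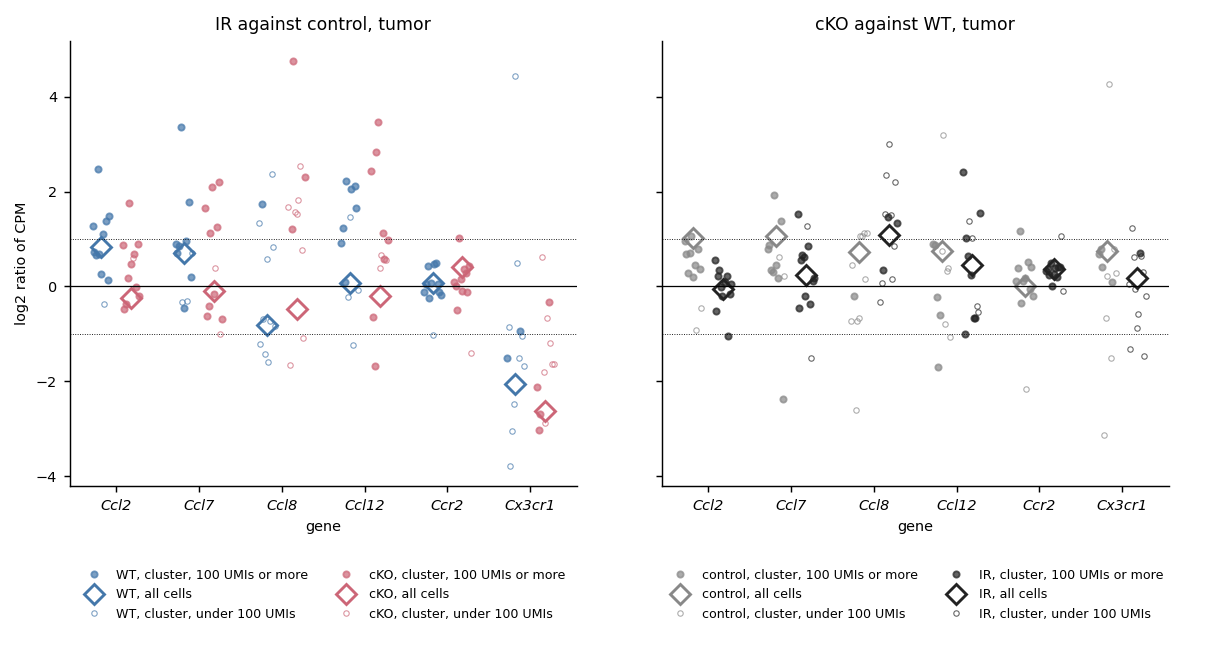
Each small point is the log2 ratio of CPM in 1 tumor cluster with at least 50 cells in both groups (filled with at least 100 UMIs of the gene in the pair, open with fewer), each open diamond the ratio over all cells; the left panel gives IR against control by genotype and the right panel cKO against WT by treatment, with dotted lines at the limit of 1. For Ccl8 the left panel shows both diamonds below 0 and clusters on either side of it, and for Cx3cr1 most clusters lie below 0, 9 of 11 in WT and 10 of 11 in cKO.

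cKO against WT cells of the same tumor library asked how cells labelled for the deletion of Ythdf2 differed. YTHDF2 is a reader protein of N6-methyladenosine in mRNA, and its loss was not checked by these data. Without IR 2 of the 6 genes were past the limit, against 4.84% of 10668 genes: Ccl2 at 1.02 (0.99 to 1.04) and Ccl7 at 1.06 (1.03 to 1.09). Ccl8 (0.73, 0.65 to 0.82), Ccl12 (0.74, 0.69 to 0.78) and Cx3cr1 (0.76, 0.65 to 0.87) were also above the median of all genes (0.11), and Ccr2 was at 0.01 (-0.04 to 0.06). The cell mix differed too, since the Folr2 and fibroblast-like clusters were each more frequent among control cKO than control WT cells, by the shares given above. Within clusters Ccl2 was above 0 in 9 of 11, Ccl7 in 10 of 11, Cx3cr1 in 8 of 11 and Ccl12 in 6 of 11, and with at least 100 UMIs in the pair Ccl2 ranged from 0.20 to 1.06. In the Folr2 cluster Ccr2 was at 106 CPM in WT and 240 CPM in cKO cells. With fixed class shares the log2 ratios were 0.47 for Ccl2, 0.34 for Ccl7, -0.19 for Ccl12 and -0.28 for Ccl8, so that no gene was past the limit and Ccl8 and Ccl12 changed sign. In named myeloid clusters only, Ccl2 was at 0.75 and Ccl7 at 0.64. With TMM scaling Ccl2 was at 0.96 and Ccl7 at 1.002. Without lymphoid, stromal, erythroid and basophil clusters Ccl2 was at 1.05 and Ccl7 at 1.30. The part of free RNA in these values was not tested.

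After IR, 1 of the 6 genes was past the limit in tumors, against 1.19% of 10024 genes: Ccl8, at 1.08 (0.96 to 1.19), or 0.67 with fixed class shares and 0.98 without lymphoid, stromal, erythroid and basophil clusters. It rested on few cells, by the shares of the richest cells given above, and without the cell richest in Ccl8 in each group it was at 1.43. IR against control in WT cells, Ccl8 was then at -1.24, past the limit. Ccl2 was at -0.06 (-0.08 to -0.04), Ccl7 at 0.25, Ccl12 at 0.46 and Cx3cr1 at 0.18 (-0.06 to 0.43). Ccr2 was at 0.36 (0.32 to 0.41), a small difference that was above 0 in 10 of 12 clusters. The hashtags bear on every comparison with tumor WT cells, those of Ccl2 and Ccl7 in control tumors among them. A stricter WT label also required 4 times as many B0301 as B0302 UMIs. The tumor control WT group then went from 2539 to 1008 cells and the tumor IR WT group from 3147 to 2417. Fewer of the 6 genes were then past the limit for cKO against WT in control tumors, by the count given below. cKO against WT, Ccl8 was then at 2.14 after IR and 0.02 without, and Ccl12 at -0.06 without. IR against control in WT cells, Ccl8 was then at -2.60, past the limit, and Ccl12 at -0.64.

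In blood only Ccl2, Ccr2 and Cx3cr1 had enough UMIs. IR against control put none of these genes past the limit in WT (1.37% of 9781 genes) and none in cKO (1.37% of 9520 genes). Cx3cr1 was lower after IR in both, at -0.66 (-0.74 to -0.58) and -0.69 (-0.77 to -0.61), and Ccl2 went in opposite directions, at -0.42 (-0.52 to -0.32) in WT and 0.49 (0.36 to 0.64) in cKO. Ccr2 was at -0.07 (-0.10 to -0.03) in WT and 0.30 (0.26 to 0.34) in cKO. In the F13a1 classical monocyte-like cluster Cx3cr1 was at 193 CPM in control WT and 207 in control cKO, and at 106 and 124 after IR, while Ccr2 stayed between 1005 and 1145 CPM. In the blood nonclassical monocyte-like cells Cx3cr1 was at 365 and 422 CPM without IR and 274 and 358 after IR.

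cKO against WT in blood put 1 of the genes with enough UMIs past the limit without IR (2.25% of 9643 genes). This was Ccl2, at -1.23 (-1.36 to -1.10), which is the opposite sign to control tumors. None of them was past it after IR (0.651% of 9676 genes), with Ccl2 at -0.32 (-0.43 to -0.20). Within the F13a1 cluster Ccl2 was at 207 CPM in control WT, 88.8 in control cKO, 131 in IR WT and 92.0 in IR cKO. Cx3cr1 was higher in cKO cells, by 0.36 (0.29 to 0.43) without and 0.33 (0.24 to 0.42) with IR, and Ccr2 was at -0.03 and 0.33.

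The surrounding pathway was read from lists of genes that include none of the 6. For IR in tumors, 2.63% of all genes tested were higher and 3.29% lower past the limit in WT cells, and 5.17% and 17% in cKO cells. Other monocyte- and macrophage-linked ligands (10 genes, 8 tested) had 3 higher and 0 lower past the limit after IR in WT tumor cells, with a median of 0.76, among them Ccl4 (531 to 1703 CPM) and Ccl3 (251 to 793 CPM), and Csf1, the macrophage growth factor (29.95 to 62.0 CPM). In cKO cells 1 was higher and 1 lower, with a median of 0.53. The type I interferon list (11 tested) had 10 higher in WT and 11 in cKO tumor cells after IR, with medians of 2.68 and 3.83. Of all genes tested, 3.5% were higher and 1.34% lower past the limit in control cKO than in control WT tumor cells. Without IR, 6 of these 11 were lower in cKO than in WT cells (median -1.04), and Rsad2 was at 57.4 against 149 CPM. The NF-kB list, which holds activators of Ccl2 such as Tnf, had 0 of 12 past the limit in WT and 1 lower in cKO cells after IR, Tnf, from 455 to 189 CPM, and 2 higher in control cKO cells, Tnf and Il6. Genes of chemokine receptor signaling and migration (14 tested) had none past the limit in either genotype after IR, with medians of 0.10 and 0.49. Other chemokine receptors (8 and 7 tested) had 1 higher and 1 lower in WT and 3 higher and 1 lower in cKO cells. Other chemokine ligands had 4 of 10 higher and 1 lower in WT and 3 higher and 1 lower in cKO cells, and monocyte fate factors had 0 of 12 past the limit in either.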

How the data were processed

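Cells of 4 droplet libraries (3′ gene expression with hashtag antibodies, 10x Genomics) were analysed from the deposited matrices of raw UMI counts, which the authors made with Cell Ranger (6.0.1 in the submitters' processing notes, 4 in the matrix header) on mm10. The deposited counts are not normalized and include empty droplets. The authors' Seurat 4.0.6 steps were not repeated. The 6 genes and the gene lists were chosen with earlier results of these data known.

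Barcodes with at least 500 UMIs, 200 genes, at most 25% mitochondrial UMIs and at least 20 hashtag UMIs were kept. A cell was labelled WT if B0301 was at least B0302, cKO if B0302 was at least 4 times B0301, and otherwise left out. Scrublet's own threshold marked 2, 0, 1 and 1 cells and had not worked, so the 6% highest scores of each library were removed. Cells of each tissue were clustered with scanpy 1.11.5 (2000 variable genes without the 6 genes, Ythdf2, Lyz1 and Lyz2, 40 components, 20 neighbors, Leiden resolution 0.8). A marker was raised if it was found in 25% of cells and was 2 times as high as in the other cells, and a name needed 3 raised markers.

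UMIs were summed per group or cluster and divided by all gene UMIs (CPM), with exact Poisson intervals. Ratios had 1 depth-scaled UMI added and exact conditional binomial intervals, and shares had Clopper-Pearson intervals, all at 95% and for counting error only. With 1 pool per group no test was run. Genes named from the pathway lists were among the 4 with the largest absolute log2 ratio of their list and comparison. TMM factors came from edgeR 4.0.16. Fixed class shares averaged the levels of each group's classes (and, within a tissue, unnamed clusters) of at least 20 cells with their shares of the UMIs of both groups pooled. The scripts were tested on simulated counts. Gene positions are from GENCODE vM21. A list of adhesion genes is not reported here.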

Additional observations from a re-analysis of the deposited data

Results flagged for a closer look

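Several log2 ratios had opposite signs in groups compared under the same contrast. Each group was 1 pool, so none of these differences was tested. After IR in tumors, Ccl2 was at 0.82 in WT and -0.25 in cKO cells, Ccl7 at 0.71 and -0.10, and Ccl12 at 0.069 and -0.21. For cKO against WT in tumors, Ccl2 was at 1.02 without IR and -0.060 after IR. These pairs share the tumor control groups, of which WT was low for Ccl2. In blood after IR, Ccl2 was at -0.42 in WT and 0.49 in cKO cells, and Ccr2 at -0.067 and 0.30.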

How the results depend on the processing

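The 3 settings that left out lymphoid, stromal, erythroid and basophil clusters, barcodes with hashtags in both tumor libraries, or the cell richest in a gene in each group were chosen after seeing the data. The number of genes past the limit for IR against control in tumor WT cells was 1, and became 2 with the symmetric hashtag rule (4 times as many UMIs for either label), with the mean of per-cell CPM, with fixed class shares, without lymphoid, stromal, erythroid and basophil clusters and without the richest cells, and 4 in named myeloid clusters only. In tumor cKO cells it was 1, and became 4 in named myeloid clusters only and 2 with fixed class shares. For cKO against WT in control tumors it was 2, and became 1 with the symmetric rule, with no hashtag margin, with the order-of-magnitude UMI threshold and with TMM, and 0 in named myeloid clusters only and with fixed class shares. In irradiated tumors it was 1, and became 0 with fixed class shares and without lymphoid, stromal, erythroid and basophil clusters. In control blood it was 1, and became 0 with the mean of per-cell CPM. That last setting also reversed Cx3cr1 for tumor against blood in control cKO cells, from -1.07 to 0.069. The cause of these changes was not tested. Outside the main setting the share of all genes past the limit was not measured, so the changed counts have no background. Of 60 log2 ratios, 40 moved beyond their counting interval with fixed class shares and 22 with TMM, and 0 with at least 100 hashtag UMIs, at least 20 UMIs per gene or at most 10% mitochondrial UMIs. No paired analysis was possible because each group was 1 pool and the labels give no replicate numbers. Within blood Ccl7, Ccl8 and Ccl12 had too few UMIs for a ratio, at 19200154 to 22961799 gene UMIs per group.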
